A study of Mus musculus with 6 samples.

Results

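Ryk and 9 other genes of receptors and co-receptors for Wnt proteins, namely Ror1, Ror2, Ptk7, Lrp5, Lrp6, Fzd3, Fzd4, Fzd6 and Fzd7, were followed through 6 RNA sequencing libraries of MIN6 cells, which derive from a mouse insulinoma and stand in for pancreatic beta cells. The 10 genes were taken by symbol from the 23284 in the count tables. The set was put together because Ryk had the smallest p of the 13039 genes tested, so the set was chosen by the difference of Ryk between the groups, which is described here without a test, and the other 9 genes were added for their family. Of the 6 libraries, 3 came from cells given an ASO (antisense oligonucleotide) against Paupar, a long noncoding RNA made beside Pax6, and 3 from cells given a control ASO. These are called Paupar KD and control KD, KD standing for knockdown. All 6 were total RNA of the same line made into TruSeq libraries, and the labels give no dose, no time of treatment and no count of separate oligonucleotides or cultures. Paupar itself has no row in the tables, so the counts hold no check of its knockdown.

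Wnt proteins are secreted lipid-bearing ligands that bind the cysteine-rich domain of Frizzled receptors. With the co-receptors LRP5 or LRP6 they stop the destruction of beta-catenin, which then works with TCF/LEF factors in the nucleus; with ROR1, ROR2, RYK or PTK7 they act mostly through routes that do not need beta-catenin, such as planar cell polarity. RYK is an odd member of the receptor tyrosine kinases, since its extracellular part resembles the secreted Wnt inhibitor WIF1 and its kinase domain is held to be inactive.

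The start regions of 3 of the kinase-like receptor genes are shown. Ryk is the gene the set was built around, and Ror1 and Ror2 are further kinase-like receptor genes in it. RefSeq promoters of 300 bases, 250 before and 50 after the start, were found for 6 of the 10 genes (Ryk, Ror1, Ror2, Ptk7, Fzd4 and Fzd7; build GRCm38.p6). Each is read 5′ to 3′ along the gene, and capitals mark the GC box, GGGCGG or CCGCCC on either strand. The Ryk promoter lies at chr9:102834670-102834969 on the plus strand, that of Ror1 at chr4:100095541-100095840 on the plus strand and that of Ror2 at chr13:53286075-53286374 on the minus strand.
Ryk: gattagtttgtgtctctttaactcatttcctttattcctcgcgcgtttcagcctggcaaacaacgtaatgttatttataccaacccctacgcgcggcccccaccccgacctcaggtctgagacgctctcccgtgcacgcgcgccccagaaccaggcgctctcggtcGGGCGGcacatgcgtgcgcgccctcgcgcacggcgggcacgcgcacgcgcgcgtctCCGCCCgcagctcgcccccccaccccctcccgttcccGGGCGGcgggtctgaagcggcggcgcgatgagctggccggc
Ror1: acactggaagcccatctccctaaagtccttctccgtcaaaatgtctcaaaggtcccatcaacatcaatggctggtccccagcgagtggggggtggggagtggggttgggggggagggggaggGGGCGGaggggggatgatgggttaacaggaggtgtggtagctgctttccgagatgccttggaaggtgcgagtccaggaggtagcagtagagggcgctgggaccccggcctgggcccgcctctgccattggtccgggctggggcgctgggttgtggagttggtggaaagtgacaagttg
Ror2: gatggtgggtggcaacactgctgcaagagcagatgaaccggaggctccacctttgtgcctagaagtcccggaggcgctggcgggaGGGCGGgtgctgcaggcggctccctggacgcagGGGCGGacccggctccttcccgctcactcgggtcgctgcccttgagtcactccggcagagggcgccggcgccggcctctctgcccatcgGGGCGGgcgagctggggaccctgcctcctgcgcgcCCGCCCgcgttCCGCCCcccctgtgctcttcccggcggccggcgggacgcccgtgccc

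The Ryk promoter held 42 CG dinucleotides, more than 97.1% of the 27025 promoters of the table (1 per gene, median 7), and its ratio of observed to expected CG was 1.27, above 99.8% of them. Ror2 held 32 CG dinucleotides with a ratio of 0.765, and Ror1 held 10 with a ratio of 0.384. The GC box, which 35.9% of all promoters hold, was present at 3 places in Ryk, 5 in Ror2 and 1 in Ror1. The TCF/LEF word CTTTGAT, or ATCAAAG on the other strand, is held by 3.72% of all promoters and was at 0 places in each of the 6 matched members. The CCAAT box (CCAAT or ATTGG, held by 37.9%) was at 0 places in Ryk and Ror2 and at 1 in Ror1. Each of the 6 promoters matched 1 place on its chromosome in the mm9 assembly, and there the RefSeq start fell on the first base of the gene as GENCODE M1 annotates it.

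Library totals were 16973622 to 23434166 counts in Paupar KD and 22463557 to 28693863 counts in control KD. The Paupar KD libraries differed more among themselves, with a biological coefficient of variation of 18.8% against 4.95% in control KD. Paupar KD replicate 1 stood farthest from the others: its highest correlation of log2 CPM to another library was 0.984, against 0.989 or more for each of the other 5. CPM is the count set against the TMM-scaled total of its library. All 12 markers of beta cells were measured and 0 passed the test, with a summed level of 45769 to 67587 CPM in Paupar KD and 41312 to 45324 CPM in control KD. That sum was mostly Ins2, Chga, Iapp and Ins1, and its members went in both directions. Ins2 and Iapp lay higher without overlap, at 21916 and 9428 CPM in Paupar KD against 15995 and 8377 CPM in control KD. Slc30a8 and Neurod1 lay lower without overlap, at 387 and 373 CPM in Paupar KD against 472 and 436 CPM in control KD. The remaining beta cell markers overlapped. Markers of other islet cells summed to 41.5 to 127 CPM in Paupar KD and 67.0 to 76.5 CPM in control KD, nearly all of it Gcg. The summed immune markers were at 0.767 to 1.502 CPM in Paupar KD and 2.44 to 2.48 CPM in control KD, nearly all of it Cd68 (Ptprc at 0 counts). Those of exocrine and duct cells were at 0.685 to 1.003 CPM in Paupar KD and 1.19 to 1.66 CPM in control KD (Cpa1, Prss1, Amy2a5 and Sox9 at 0 counts). Nearly all of that sum was Cela1, at 0.782 CPM in Paupar KD and 1.34 CPM in control KD. Krt19, with 0 to 2 counts per library, went the other way, at 0.0666 CPM in Paupar KD and 0.0258 CPM in control KD. Mesenchymal markers (Col3a1 at 0 counts) summed to 0.440 to 1.36 CPM in Paupar KD and 0.698 to 0.753 CPM in control KD, and endothelial ones (Cdh5 at 0 counts) to 0.590 to 0.978 CPM in Paupar KD and 0.554 to 0.943 CPM in control KD. The summed beta cell, immune, and exocrine and duct markers lay apart between the groups, and their part in the results was not tested. In such bulk RNA, fewer cells of a type and less RNA per cell cannot be told apart.

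Ryk, the receptor with the inactive kinase domain, lies on chromosome 9 (mm9, 102737250 to 102810637, plus strand). It was at 107, 114 and 102 CPM in Paupar KD replicates 1 to 3 (1811, 2329 and 2380 counts), against 45.8, 48.3 and 46.8 CPM in control KD replicates 1 to 3 (1035, 1135 and 1340 counts). Every Paupar KD library lay above every control KD library, and the lowest of the first group was 2.11 times the highest of the second. The means were 108 ± 5.94 CPM in Paupar KD and 46.99 ± 1.26 CPM in control KD (SD, n = 3 each), a 2.29-fold difference and a log2 fold change of 1.195 ± 0.084 SE with a 95% interval of 1.002 to 1.39. Among the 10682 genes with a mean of at least 5 CPM, that log2 fold change ranked 5, and the ratio of the lowest Paupar KD to the highest control KD library ranked 1. Because Ryk was chosen by this difference, the ranks restate that choice. The fold change and its interval make no allowance for it.

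**Figure D1:**
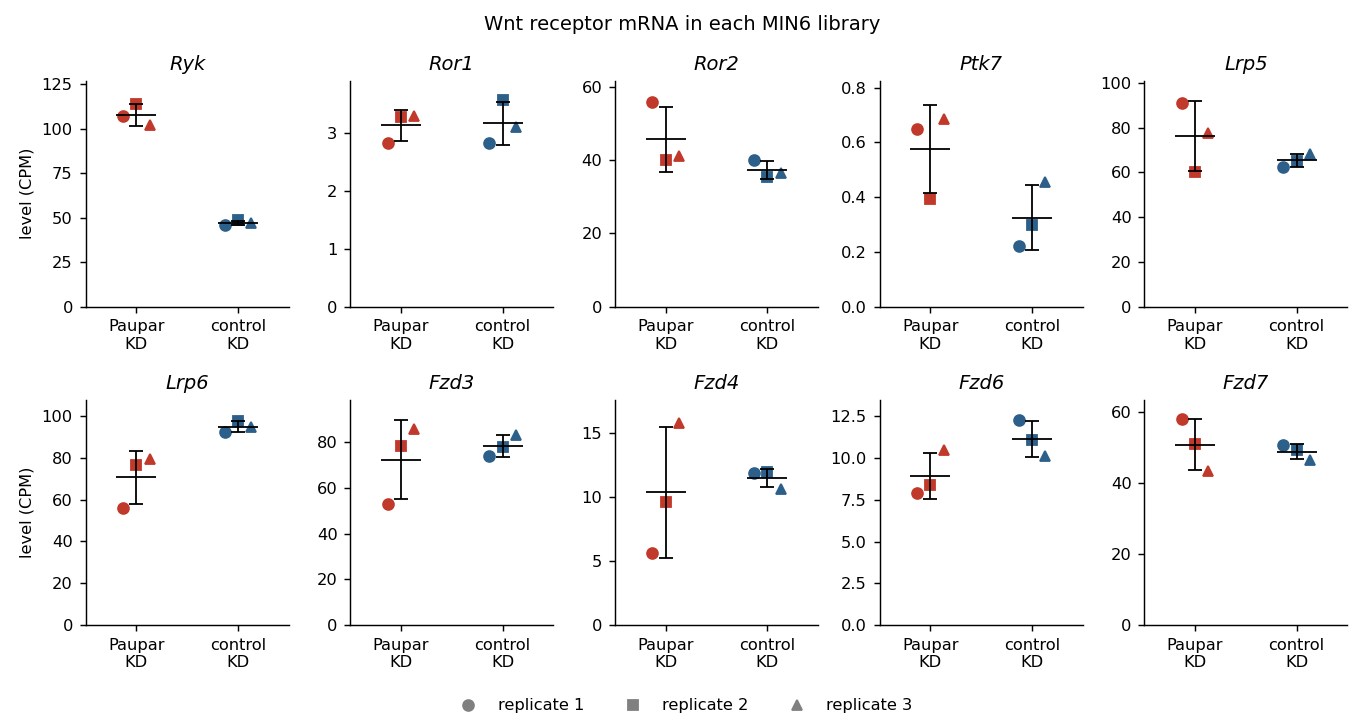
Level of each of the 10 Wnt receptor genes in CPM (vertical axes, from 0) in the 3 Paupar KD and the 3 control KD libraries; symbols mark the replicate, and the black bar and whiskers are the mean and SD. Ryk is at 102 to 114 CPM in Paupar KD against 45.8 to 48.3 CPM in control KD, while Lrp6 lies lower in Paupar KD and the circles of Paupar KD replicate 1 are often the outermost points.

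The spread of Ryk among libraries is part of what the set was chosen by and is given as a description. From the control mean, Ryk differed by 1.18, 1.28 and 1.12 on the log2 scale in Paupar KD replicates 1 to 3. Its coefficient of variation was 5.52% in Paupar KD and 2.68% in control KD, where counting error alone gives 2.15% in Paupar KD and 2.92% in control KD. The other 9 genes varied by 8.47% (Ror1) to 49.2% (Fzd4) among the Paupar KD libraries, and for Ror1 and Ptk7 (27.9%) this was below their counting error of 12.5% and 29.3%. Replicate 1 was the one that stood apart most often: from the control mean it differed by -1.02 for Fzd4, -0.76 for Lrp6, 0.58 for Ror2, -0.57 for Fzd3, -0.50 for Fzd6 and 0.48 for Lrp5.

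Of the 13039 genes tested with edgeR's quasi-likelihood test, 0.046% passed an adjusted p of 0.05, 0.0383% higher and 0.00767% lower in Paupar KD. Without Paupar KD replicate 2, or without any 1 of the control KD libraries, the same test called 0 genes. None of the other 9 receptor genes passed (0 of 9), and 1 of 9 had an unadjusted p under 0.05, against 17.7% of all genes. DESeq2 and limma-voom called 0 of these 9 as well. The libraries of the groups lay fully apart for 2 of the 9, Ror2 higher and Lrp6 lower, against 27.1% of all genes (13.7% higher and 13.3% lower). The median log2 fold change of the 9 was -0.01, beside 0.01 over all genes tested.

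**Figure D2:**
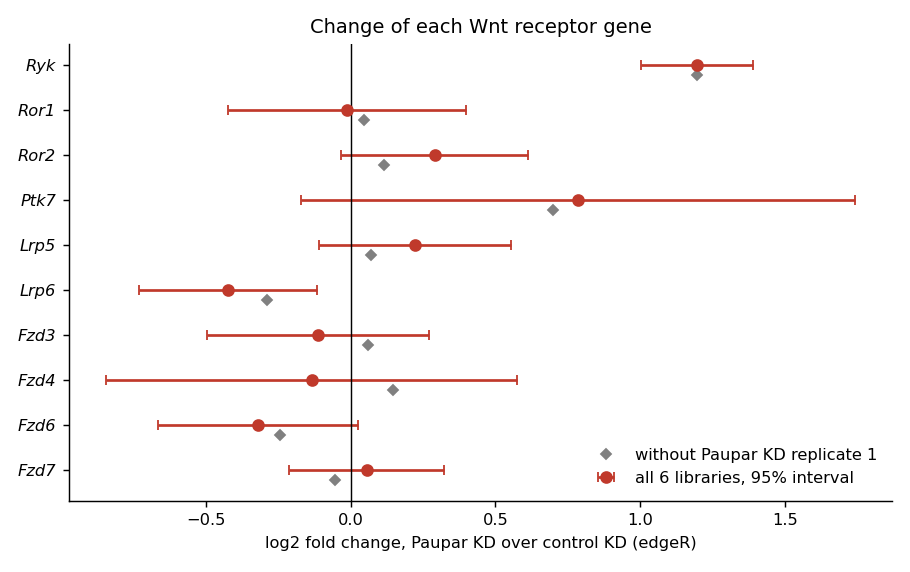
Log2 fold change of each receptor gene, Paupar KD over control KD (horizontal axis), with the edgeR estimate and 95% interval from all 6 libraries (red) and the estimate without Paupar KD replicate 1 (grey diamonds). The interval of Ryk runs from 1.002 to 1.39, and those of the other genes except Lrp6, at -0.73 to -0.12, include 0.

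Ror1 and Ror2 encode receptors of the receptor tyrosine kinase family that bind Wnt5a. Ror2 (chromosome 13, 53204681 to 53381493, minus strand) was at 56.1, 40.2 and 41.2 CPM in Paupar KD, against 40.2, 35.6 and 36.6 CPM in control KD. Replicate 1 made most of the difference, and the lowest Paupar KD value, 40.204 CPM, lay just above the highest control KD value, 40.178 CPM. The log2 fold change was 0.29 ± 0.14 SE, with a 95% interval of -0.03 to 0.61 (adjusted p = 0.314, edgeR), and 0.11 without Paupar KD replicate 1 (adjusted p = 0.480, edgeR). Ror1 was scarce, at 2.83, 3.28 and 3.30 CPM in Paupar KD and 2.84, 3.58 and 3.11 CPM in control KD. The groups overlapped, and the 95% interval of its log2 fold change was -0.42 to 0.40 (adjusted p = 0.979, edgeR).

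Ptk7, which encodes a further receptor with an inactive kinase domain that acts in planar cell polarity, was hardly present. It had 11, 8 and 16 counts in Paupar KD and 5, 7 and 13 counts in control KD, or 0.576 ± 0.161 CPM in Paupar KD and 0.324 ± 0.118 CPM in control KD (SD, n = 3 each). With so few counts its 95% interval ran from -0.17 to 1.74 on the log2 scale (adjusted p = 0.348, edgeR), a range that includes both 0 and the log2 fold change of Ryk, so a difference was not detectable at this depth.

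Lrp5 and Lrp6 encode the co-receptors of the beta-catenin route. Lrp6 (chromosome 6, 134396494 to 134516983, minus strand) was at 55.97, 76.6 and 79.3 CPM in Paupar KD, against 92.2, 97.7 and 94.5 CPM in control KD. All Paupar KD libraries were below all control KD libraries, and replicate 1 was the lowest. The log2 fold change was -0.42 ± 0.13 SE with a 95% interval of -0.73 to -0.12 (adjusted p = 0.197, edgeR). Without Paupar KD replicate 3 it was -0.51 and passed (adjusted p = 0.0487, edgeR), in a fit that called 10.3% of all genes; without replicate 1 it was -0.29 (adjusted p = 0.0645, edgeR). Over the 15 alternatives the adjusted p of Lrp6 ran from 0.0487 to 0.579, with the same direction in each.

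Its relative Lrp5 (chromosome 19, 3584825 to 3686564, minus strand) was at 91.2, 60.3 and 77.4 CPM in Paupar KD and at 62.4, 65.3 and 68.3 CPM in control KD. Replicate 2 of Paupar KD lay below all controls and the other libraries of that group lay above them. The log2 fold change was 0.22 ± 0.14 SE, with a 95% interval of -0.11 to 0.56 (adjusted p = 0.435, edgeR).

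Frizzled receptors carry the Wnt-binding domain and a bundle of membrane-spanning helices. Fzd3, the most abundant of them per length, was at 52.96, 78.6 and 85.7 CPM in Paupar KD and at 73.9, 77.8 and 83.4 CPM in control KD. Only replicate 1 lay outside the control range by much, and the 95% interval of the log2 fold change was -0.50 to 0.27 (adjusted p = 0.750, edgeR). Fzd7 was at 58.1, 50.96 and 43.6 CPM in Paupar KD against 50.8, 49.4 and 46.6 CPM in control KD, with control values inside the Paupar KD range and an interval of -0.21 to 0.32 (adjusted p = 0.829, edgeR).

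Fzd4 and Fzd6 were several times scarcer. Fzd4 was at 5.66, 9.64 and 15.8 CPM in Paupar KD against 11.9, 11.9 and 10.6 CPM in control KD, so that the Paupar KD libraries lay on both sides of the controls (log2 interval -0.84 to 0.58, adjusted p = 0.846, edgeR). Fzd6, a receptor of planar cell polarity in mice, was at 7.90, 8.36 and 10.47 CPM in Paupar KD against 12.3, 11.1 and 10.1 CPM in control KD. Its groups overlapped by 1 library on each side, and its log2 fold change was -0.32 ± 0.15 SE with an interval of -0.66 to 0.03 (adjusted p = 0.308, edgeR).

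Levels of different genes were compared as CPM per kilobase of exon, using the exon lengths of GENCODE M1. In Paupar KD, Ryk came first with 32.9 ± 1.82 CPM per kb (SD, n = 3), apart from the next gene in every library. Fzd3 (17.1 ± 4.07), Lrp5 (14.8 ± 2.995), Ror2 (10.8 ± 2.10) and Fzd7 (10.6 ± 1.52) followed, each overlapping its neighbour in the order. Lrp6 came next at 7.19 ± 1.30 CPM per kb, then Fzd4 at 2.81 and Fzd6 at 2.18, which overlapped, and Ror1 at 0.544 and Ptk7 at 0.122.

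In control KD the first 3 places were held by Fzd3 at 18.5 ± 1.13, Ryk at 14.4 ± 0.385 and Lrp5 at 12.6 ± 0.575 CPM per kb, each apart from the next. Fzd7 at 10.2 ± 0.437, Lrp6 at 9.65 ± 0.282 and Ror2 at 8.83 ± 0.572 CPM per kb formed a run in which neighbours overlapped. Fzd4 at 3.12 and Fzd6 at 2.73 overlapped, and Ror1 at 0.551 and Ptk7 at 0.0689 CPM per kb were last. Among the 12800 tested genes with an exon length, Ryk was above 83.6% in Paupar KD and above 63.1% in control KD.

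Ryk held a larger share of the summed receptor mRNA in every Paupar KD library than in any control KD library. That share rests on the same difference by which Ryk was chosen, so it is a description and no separate result. Ryk made up 33.4%, 35.5% and 31.0% of the summed level per kb of the 10 genes in Paupar KD replicates 1 to 3, against 17.6%, 18.2% and 17.6% in control KD. The sum of the other 9 genes was 65.3, 63.5 and 69.7 CPM per kb in Paupar KD and 65.7, 66.3 and 66.9 CPM per kb in control KD, with means of 66.1 ± 3.20 in Paupar KD and 66.3 ± 0.579 in control KD (SD, n = 3 each). The 2 groups overlapped in that sum. By kind, the 4 Frizzled genes together stood at 32.7 ± 4.16 CPM per kb in Paupar KD and 34.6 ± 0.269 CPM per kb in control KD. Lrp5 and Lrp6 together stood at 21.9 ± 2.16 CPM per kb in Paupar KD and 22.3 ± 0.735 CPM per kb in control KD, and Ror1 and Ror2 at 11.3 ± 2.05 CPM per kb in Paupar KD and 9.38 ± 0.514 CPM per kb in control KD. The sums of Ror1 and Ror2 lay apart, at 10.05 to 13.7 CPM per kb in Paupar KD and 9.004 to 9.96 CPM per kb in control KD, and the other sums overlapped.

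**Figure D3:**
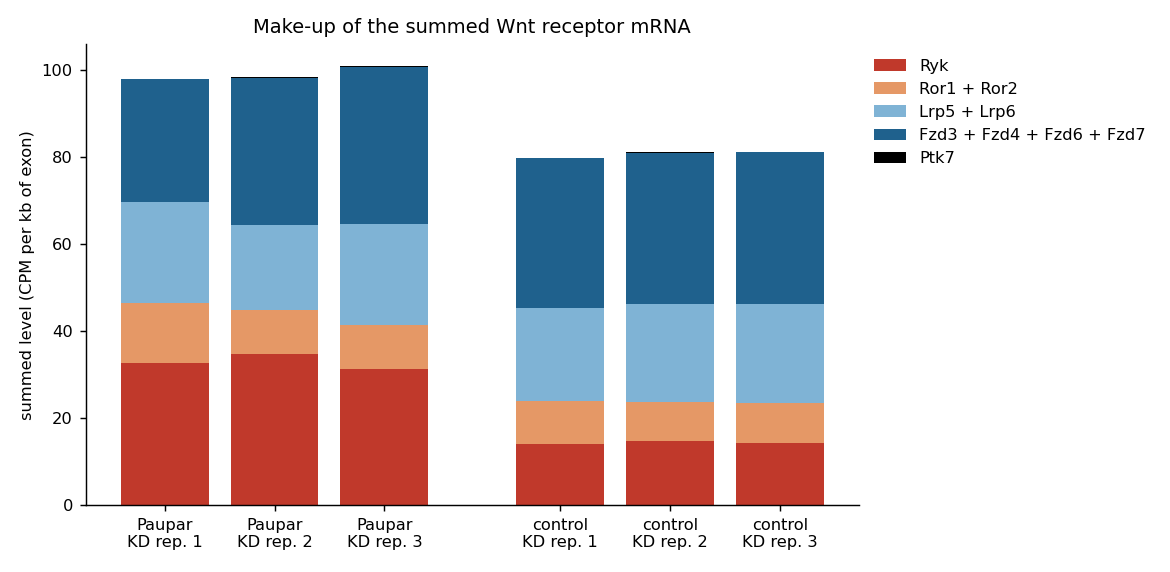
Summed level of the 10 receptor genes in CPM per kb of exon (vertical axis) in each library, stacked by kind of receptor; Ptk7 is too low to be visible. The total is 98.0 to 101 CPM per kb in Paupar KD and 79.8 to 81.2 CPM per kb in control KD, and Ryk, at the foot of each bar, is at 31.3 to 34.9 CPM per kb in Paupar KD and 14.03 to 14.8 CPM per kb in control KD.

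The rest of the Wnt pathway was read from 7 lists with 155 different entries, of which 154 have a row and 105 passed the filter on low counts. No list gene passed over all genes with edgeR (0 of 105), with 8 higher and 8 lower at an unadjusted p under 0.05, against 17.7% of all genes in either direction. Limma-voom also called 0, and DESeq2 called 1, Nfatc2, lower, in a fit that called 3.90% of all genes. Without Paupar KD replicate 3, edgeR called Cby1 and Csnk1g2 higher and 6 genes lower, among them Aph1b, Bcl9, Ctnnbip1, Intu and Nfatc2, in a fit that called 10.3% of all genes, and without replicate 1 it called Id2 higher, with 1.91% of all genes. Groups lay apart for 11 higher and 17 lower genes, 26.7% of the 105, against 27.1% of all genes. Their median log2 fold change was -0.05. Values with ± in what follows are means and SD over 3 libraries per group unless marked SE.

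**Figure D4:**
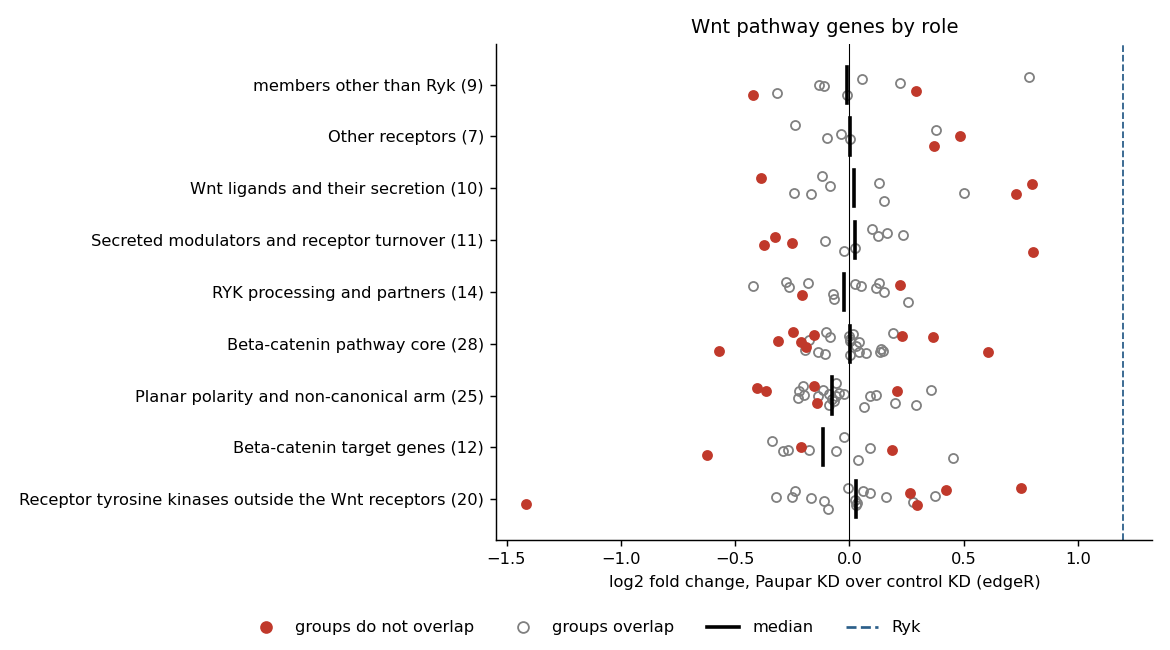
Log2 fold change, Paupar KD over control KD (horizontal axis), of each tested gene of the Wnt pathway lists and of other receptor tyrosine kinases, with the number tested in brackets; filled points are genes whose groups do not overlap, bars are medians, and the dashed line is Ryk at 1.20. No gene of these lists reaches the line, and the lowest point, at -1.41, is Mertk.

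Of 13 further receptors and co-receptors 7 were tested and 0 passed, with a median log2 fold change of 0.00. Fzd1 had the smallest p, at 11.05 ± 1.61 CPM in Paupar KD and 8.54 ± 0.665 CPM in control KD (adjusted p = 0.258, edgeR). Fzd5, the highest per length in control KD, was at 30.1 ± 5.29 CPM in Paupar KD and 30.1 ± 1.47 CPM in control KD (adjusted p = 0.994, edgeR). Fzd10 had 0 counts in all libraries.

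Ligands and their secretion machinery gave 10 tested genes of 21 with a row, 0 of which passed, and a median of 0.02. Wnt4, at 16.6 ± 2.91 CPM in Paupar KD and 15.2 ± 1.15 CPM in control KD, and Wnt9a, at 8.47 ± 0.829 CPM in Paupar KD and 9.22 ± 0.661 CPM in control KD, were the ligand genes with the most counts. Wls, the carrier that takes Wnt proteins to the cell surface, was at 247 ± 37.1 CPM in Paupar KD and 263 ± 2.83 CPM in control KD (adjusted p = 0.719, edgeR). Porcn, the enzyme that attaches their lipid, was at 7.93 ± 1.03 CPM in Paupar KD and 10.3 ± 0.666 CPM in control KD without overlap (adjusted p = 0.236, edgeR). Wnt5a, a ligand of both RYK and ROR2, was near the limit of counting. It was at 0.745 ± 0.136 CPM in Paupar KD and 0.445 ± 0.148 CPM in control KD without overlap (adjusted p = 0.319, edgeR).

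Secreted modulators and genes of receptor turnover gave 11 tested of 27, 0 of which passed, with a median of 0.02. Frzb, a secreted Frizzled-related Wnt antagonist, was at 3.21 ± 0.834 CPM in Paupar KD and 1.86 ± 0.462 CPM in control KD (adjusted p = 0.216, edgeR). Kremen1, a receptor for Dickkopf antagonists, was at 16.5 ± 0.712 CPM in Paupar KD and 19.7 ± 0.973 CPM in control KD (adjusted p = 0.262, edgeR), and Shisa2, which holds Frizzled proteins in the endoplasmic reticulum, at 5.35 ± 0.698 CPM in Paupar KD and 6.93 ± 0.529 CPM in control KD (adjusted p = 0.266, edgeR). Usp6nl, a GTPase-activating protein gene of that list, was at 66.5 ± 17.1 CPM in Paupar KD and 83.4 ± 0.635 CPM in control KD (adjusted p = 0.353, edgeR). Tmem59, highest per length of the list, was at 299 ± 20.4 CPM in Paupar KD and 294 ± 11.5 CPM in control KD (adjusted p = 0.904, edgeR).

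Genes that cut, ubiquitinate or bind RYK gave 14 tested of 15 and 0 passed, with a median of -0.02. Gamma-secretase releases the inner part of RYK, and its subunit gene Ncstn was at 159 ± 9.39 CPM in Paupar KD and 167 ± 6.74 CPM in control KD (adjusted p = 0.708, edgeR). Cdc37, an HSP90 co-chaperone that binds that inner part, was at 144 ± 6.86 CPM in Paupar KD and 123 ± 5.97 CPM in control KD without overlap (adjusted p = 0.248, edgeR). Smek2, a regulatory subunit of protein phosphatase 4, was at 149 ± 17.8 CPM in Paupar KD and 172 ± 0.469 CPM in control KD (adjusted p = 0.323, edgeR). Ncstn falls outside the naming rule and was chosen after its values were seen. The other gamma-secretase subunit genes of the list went in both directions, so Ncstn does not stand for the complex.

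In the beta-catenin core 28 of 32 genes were tested and 0 passed, with a median of 0.00. Ctnnb1, the beta-catenin gene and the highest per length, was at 622 ± 65.9 CPM in Paupar KD and 561 ± 18.2 CPM in control KD (adjusted p = 0.453, edgeR). Cby1, which encodes the beta-catenin antagonist Chibby, was at 33.8 ± 9.55 CPM in Paupar KD and 22.2 ± 1.26 CPM in control KD, and Ctnnbip1, which encodes an inhibitor of the beta-catenin and TCF contact, at 115 ± 32.0 CPM in Paupar KD and 171 ± 10.6 CPM in control KD (adjusted p = 0.192 and 0.194, edgeR). Csnk1g2, of the kinases that phosphorylate LRP6, was at 123 ± 14.7 CPM in Paupar KD and 95.01 ± 3.23 CPM in control KD (adjusted p = 0.167, edgeR), and the co-activator gene Bcl9 at 70.8 ± 5.75 CPM in Paupar KD and 87.8 ± 2.65 CPM in control KD (adjusted p = 0.173, edgeR).

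The rows of the TCF/LEF genes themselves were close to empty. Tcf7 had 6 to 15 counts per library, and Tcf7l1 had 2 counts and Lef1 had 1 count over all 6 libraries. Tcf7l2 had 0 of 135492209 counts. Only if its reads could be assigned to its row does counting error bound its level, at up to 0.0221 CPM. The gene annotation behind the counts is not given in the sources used here, so that condition was not tested. A value of 0 describes the table and not the level in the cells.

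On the planar polarity and non-canonical side 25 of 29 genes were tested, 7 with positive and 18 with negative log2 fold changes (6652 and 6387 over all genes tested) and a median of -0.07, and 0 passed. Nfatc2, a calcium-regulated transcription factor gene, had the smallest p at 13.9 ± 0.930 CPM in Paupar KD and 18.4 ± 0.613 CPM in control KD (adjusted p = 0.155, edgeR). The polarity gene Vangl1 was at 27.8 ± 0.958 CPM in Paupar KD and 30.9 ± 1.31 CPM in control KD without overlap (adjusted p = 0.384, edgeR). Of the small GTPases of this arm, Rac1 was at 309 ± 4.26 CPM in Paupar KD and 267 ± 9.28 CPM in control KD (adjusted p = 0.246, edgeR) and Rhoa, highest per length, at 277 ± 19.2 CPM in Paupar KD and 286 ± 5.59 CPM in control KD (adjusted p = 0.808, edgeR).

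Genes known as targets of beta-catenin gave 12 tested of 24, 0 of which passed, with a median of -0.12. Axin2, the most widely used of them and chosen here after its value was seen, was at 22.4, 21.9 and 18.6 CPM in Paupar KD against 20.8, 21.5 and 18.99 CPM in control KD. Its groups overlapped, with a log2 fold change of 0.04 ± 0.11 SE (adjusted p = 0.887, edgeR). Id2, highest per length, was at 105 ± 20.9 CPM in Paupar KD and 76.6 ± 8.46 CPM in control KD with overlap (adjusted p = 0.220, edgeR). Apcdd1, a Wnt inhibitor gene, was at 20.7 ± 0.239 CPM in Paupar KD and 24.0 ± 1.42 CPM in control KD (adjusted p = 0.290, edgeR). Cd44 was at 16.9 ± 1.804 CPM in Paupar KD and 14.9 ± 0.316 CPM in control KD (adjusted p = 0.414, edgeR). The cyclin D1 gene Ccnd1 was scarce at 0.971 ± 0.243 CPM in Paupar KD and 1.51 ± 0.0420 CPM in control KD (adjusted p = 0.266, edgeR).

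As a receptor with a kinase fold, Ryk was set beside 31 receptor tyrosine kinases outside the Wnt receptors, of which 20 were tested and 0 passed with edgeR, 4 higher and 1 lower having an unadjusted p under 0.05, against 17.7% of all genes in either direction. Their median log2 fold change was 0.03. Mertk, a receptor for bridging ligands of dying cells, had the smallest p, at 2.06, 1.71 and 2.06 CPM in Paupar KD against 4.96, 6.09 and 4.54 CPM in control KD. Its groups lay apart, with a log2 fold change of -1.41 ± 0.19 SE (adjusted p = 0.0640, edgeR). The summed immune markers, nearly all Cd68, were also lower in each Paupar KD library, at 0.767 to 1.502 CPM against 2.44 to 2.48 CPM in control KD, and their part in the level of Mertk was not tested. Igf1r, the receptor for insulin-like growth factors, was at 128, 82.3 and 98.4 CPM in Paupar KD against 54.1, 60.9 and 68.1 CPM in control KD, also without overlap (log2 fold change 0.75 ± 0.16 SE, adjusted p = 0.133, edgeR). DESeq2 called both genes, in a fit that called 3.90% of all genes. EdgeR called both without Paupar KD replicate 1 (1.91% of all genes called) and without replicate 3 (10.3%). With Paupar KD replicate 2 or any 1 control KD library left out, it called 0 genes and so neither of them. Without the filter on low counts, edgeR called Mertk alone of the 30 kinases then tested, with 0.345% of all genes called. Ret, the GDNF receptor gene, was at 215 ± 14.2 CPM in Paupar KD and 175 ± 11.8 CPM in control KD and Fgfr1 at 15.1 ± 4.58 CPM in Paupar KD and 11.3 ± 0.150 CPM in control KD (adjusted p = 0.197 and 0.308, edgeR). Ddr1, a collagen receptor gene and the highest per length, was at 279 ± 9.17 CPM in Paupar KD and 273 ± 9.90 CPM in control KD (adjusted p = 0.857, edgeR).

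The genes beside Ryk on chromosome 9 were looked up in the same fit, so they share its libraries and groups with Ryk. Of the 5 nearest tested genes on each side, 0 of 10 passed, and groups lay apart for 2 of the 10, Srprb higher and Slco2a1 lower, against 27.1% of all genes. The nearest before Ryk, Amotl2, which encodes an angiomotin-like junction protein 102 kb away, was at 19.6 ± 2.21 CPM in Paupar KD and 18.0 ± 1.14 CPM in control KD (adjusted p = 0.606, edgeR). The nearest after it, the prostaglandin transporter gene Slco2a1 100.2 kb away, was at 2.42, 4.11 and 6.39 CPM in Paupar KD against 8.77, 8.86 and 7.16 CPM in control KD. Every Paupar KD value of Slco2a1 was lower, with a log2 fold change of -0.92 ± 0.30 SE (adjusted p = 0.209, edgeR). Srprb, a subunit gene of the signal recognition particle receptor 280 kb away, was at 140 ± 12.9 CPM in Paupar KD and 111 ± 4.43 CPM in control KD (adjusted p = 0.168, edgeR).

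The other neighbours all overlapped between groups. Before Ryk these were the cell cycle gene Anapc13 at 35.6 ± 9.17 CPM in Paupar KD and 28.9 ± 4.76 CPM in control KD, and the centrosome gene Cep63 at 23.5 ± 1.51 CPM in Paupar KD and 25.8 ± 2.31 CPM in control KD. Farther off was Ky, 289 kb away, at 1.07 ± 0.430 CPM in Paupar KD and 0.775 ± 0.238 CPM in control KD. The phosphatase subunit gene Ppp2r3a, as far as 1583 kb away, was at 55.1 ± 16.8 CPM in Paupar KD and 64.1 ± 2.93 CPM in control KD. After Ryk came Rab6b, a GTPase gene of the Golgi, at 13.5 ± 2.66 CPM in Paupar KD and 15.4 ± 1.15 CPM in control KD. It was followed by the transferrin gene Trf at 1.52 ± 0.411 CPM in Paupar KD and 1.01 ± 0.422 CPM in control KD and the DNA damage response gene Topbp1 at 238 ± 14.0 CPM in Paupar KD and 251 ± 0.393 CPM in control KD. Cep63 and Anapc13 share bases on opposite strands, and with the strand setting unknown their reads there cannot be told apart.

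Genes with a profile like that of Ryk were ranked by the root mean square difference of log2 CPM, each gene centred on its own mean, over the 6 libraries and 10682 genes. The nearest 5 were Eif2s3x (0.118), Srp14 (0.152), Rbm18 (0.162), Cdc42se2 (0.162) and Cyb561 (0.168), with Pearson correlations to Ryk of 0.964 to 0.987. Adjusted p was 0.0355 for Eif2s3x, 0.0465 for Srp14, Rbm18 and Cdc42se2, and 0.0588 for Cyb561 (edgeR). The genes called higher in that fit were Ryk and all of these but Cyb561, so the ranking largely repeats the calls. The 6 points share the same groups and libraries, so this likeness is a description of the same difference; 112 genes had a correlation above 0.95. Ryk was at 108 CPM in Paupar KD and 46.99 CPM in control KD, and Eif2s3x (a subunit of a translation initiation factor) at 27.5 ± 1.79 CPM in Paupar KD and 13.4 ± 0.302 CPM in control KD. Srp14 (of the signal recognition particle) was at 128 ± 22.5 CPM in Paupar KD and 57.7 ± 3.08 CPM in control KD, and Rbm18 at 38.0 ± 4.15 CPM in Paupar KD and 18.97 ± 0.646 CPM in control KD. Cdc42se2 was at 213 ± 31.5 CPM in Paupar KD and 105 ± 4.36 CPM in control KD, and Cyb561 (a cytochrome of secretory vesicles) at 146 ± 23.3 CPM in Paupar KD and 72.0 ± 4.71 CPM in control KD. Ranked by correlation in place of size, the nearest 5 were Zfp334, 3110040N11Rik, Pard6a, 0610037P05Rik and Dnajb6, at 0.992 to 0.996, and shared 0 genes with the first ranking.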

How the data were processed

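The authors deposited raw read counts per gene symbol, 1 table per library, with 23284 symbols and none of them a summary line. The build mm9 and the tools HTSeq, HISAT2, DESeq2 and CASAVA 1.8.2 are listed, per the submitters' processing notes. What each did, how strand was set and which annotation was counted is not given in the sources used here, so reads of overlapping genes may be divided differently from their origin. In edgeR 4.0.16 (R 4.3.3) genes were filtered with filterByExpr (minimum count 10), which left 13039 and kept all 10 members, scaled by TMM, and compared by the robust quasi-likelihood test with Benjamini-Hochberg adjustment over all genes at 0.05. The SE is the log2 fold change divided by the square root of F, and intervals are 95%. The samples were grouped by their titles. Separate cultures are not stated in the labels, and the p-values measure only how these libraries vary, which may be technical in part or whole. Exon lengths and positions came from GENCODE M1 (NCBIM37, the assembly called mm9), found for 98.2% of tested genes. Alternatives were other scalings, other filters, DESeq2 1.42.0, limma-voom (limma 3.58.1), no robust estimation, a replicate block and each library left out. Members and lists were chosen with earlier results of these data known. Named genes are the members; in each list any that passed, up to 4 with the largest change among those at 1 CPM or more whose groups did not overlap, the smallest p and the highest control level per length; 5 neighbours on each side; and the 5 most alike. Wnt4, Wnt5a, Wnt9a, Ncstn, Axin2 and the TCF/LEF genes were added after their values were seen. A few genes, among them 1 that this rule selects, are not reported here.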

Additional observations from a re-analysis of the deposited data

How the results depend on the processing

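The log2 fold change of Ryk was 1.15 to 1.23 over 15 alternatives, while the number of genes called varied widely. It was 5 higher and 1 lower in the fit reported; upper-quartile scaling gave 3 and 0, testing all genes with counts 36 and 24, a minimum mean of 1 CPM 2 and 0, and DESeq2 275 and 233. A replicate block gave 1 and 0; the cause of these differences was not tested. Deviations of same-numbered libraries correlated at 0.07, -0.01 and 0.01, and own-number pairs were the closest for Paupar KD replicate 1 but not for the others, so the numbers were not taken as pairs. Leaving out 1 library gave 0 to 611 higher and 0 to 745 lower genes (123 and 128 without Paupar KD replicate 1; 611 and 745 without replicate 3; 0 without Paupar KD replicate 2 or any 1 control). For the pathway lists it gave 0 to 2 higher and 0 to 6 lower genes, for the receptors other than Ryk 0 to 1 lower (Lrp6), and DESeq2 gave 1 lower pathway gene. Over the libraries left out, the log2 fold change ran from -0.086 to 0.071 for Ror1, -0.251 to 0.062 for Fzd3, -0.572 to 0.148 for Fzd4 and -0.055 to 0.157 for Fzd7. These 4 changed sign without Paupar KD replicate 1, and Ror1 also without control KD replicate 2 and, at 0.015, with upper-quartile scaling. None of the 4 was called in these fits, and Ror2, Ptk7, Lrp5, Lrp6 and Fzd6 kept their direction. The order of levels per length was the same with the longest transcript, and the Ryk share was 32.2% to 34.4% with a Paupar KD library left out. Of the 5 genes most like Ryk, 0 were among the first 5 by Pearson r and 3 without Paupar KD replicate 1. Low counts limit Ptk7, Ror1, Wnt5a and the TCF/LEF genes.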
